A study of Mus musculus with 6 samples.

Results

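The 41 genes described here encode the machinery that copies DNA in S phase, from the proteins that mark replication origins to the enzymes that join the finished strands and supply nucleotides. They were chosen by function, with earlier results of these data known, and looked up in the deposited table by symbol. All 41 were found among the genes measured by a probe set with a single gene symbol (19938 genes), and the probe set with the highest mean over the 6 arrays stood for each gene. The samples were KSL cells, the cKit+Sca1+Lin- fraction of mouse bone marrow that holds haematopoietic stem cells and early progenitors, measured on 6 Affymetrix Mouse Gene 1.0 ST arrays. The 3 samples labelled double knockout (DKO) had the genotype Runx1fl/fl;Runx3fl/fl;Mx1-Cre+. The 3 labelled wild type (WT) came from littermates without the transgene, Runx1fl/fl;Runx3fl/fl;Mx1-Cre-, so floxed alleles of both genes were shared by all mice. The background was C57BL/6 after at least 3 generations of backcrossing. A protocol given for both groups names 600 µg of pIpC, which induces the interferon-responsive Mx1-Cre recombinase, on 7 alternate days in mice 4 weeks old, while the sample descriptions call the cells untreated. Samples are called biological replicates; each WT sample was a pool of 3 mice, no such statement covers DKO, and the design text counts 6 mice in all. Neither the age at collection nor the time after the last injection is stated. Effects of the transgene and of the deletions cannot be told apart in this design.

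Replication starts when the origin recognition complex, Cdc6 and Cdt1 load the ring-shaped Mcm2-7 helicase onto DNA in G1. The kinase Cdc7 with its partner Dbf4 then activates the helicase, which joins Cdc45 and the GINS complex at the fork, and polymerases alpha, delta and epsilon copy the strands behind it. Many of these genes are targets of the E2F transcription factors and are transcribed as cells pass from G1 into S phase, so their level in a cell population is widely used as a sign of cycling. Most stem cells in adult marrow rest outside the cycle, whereas progenitors within the same gate divide more often.

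The values are log2 signals, on which a difference of 1 is a doubling. Their level says nothing of one gene against another, since each probe set has its own efficiency, and the number of arrays limits the precision. Pearson correlations over all genes were 0.993 to 0.995 among DKO arrays, 0.989 to 0.991 among WT arrays and 0.976 to 0.98 between groups. Kit, the sorted receptor, was at 10.49 in DKO and 9.75 in WT. The gene of Sca1, Ly6a, is not analysed here. Runx1 signal was higher in DKO (9.29 against 8.47) and Runx3 was 7.38 against 7.53 without passing the test, but a signal averaged over a whole transcript may rest on probes outside the deleted exons and checks neither deletion. DKO therefore stands for samples labelled DKO.

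Sample DKO replicate 2 stood apart in these genes. It had the lowest signal of the DKO samples in 40 of the 41 genes, the exception being Pold1, whereas it was the lowest in 32.8% of all genes. Its gap to the mean of the other DKO samples had a median of -0.39 over the 41 genes and ranged from -0.69 in Gins1, a GINS subunit, to 0.06 in Pold1, against a median of 0.01 over all genes. Among all genes, 2.06% had a gap as low as -0.39. WT replicate 2 stood on the other side: it was the highest WT sample in 28 of the 41 genes, against 30.1% of all genes, with a median gap of 0.22. Where a call was gained or lost without DKO replicate 2, the value without it is given.

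**Figure D1:**
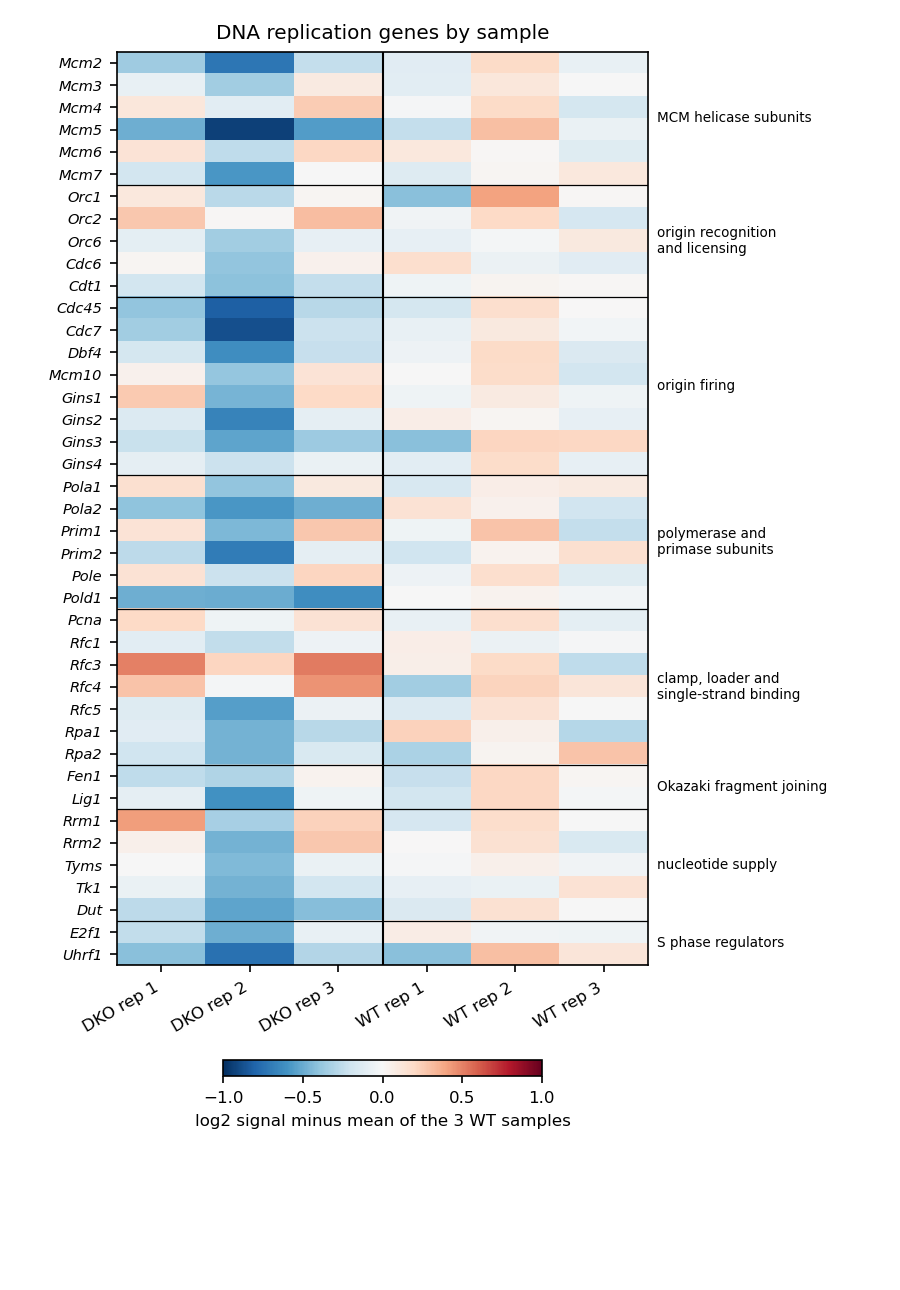
Log2 signal of each of the 41 genes (rows, grouped by role) in each of the 6 samples (columns), as the difference from the mean of the 3 WT samples, with blue for lower and red for higher. The column of DKO replicate 2 is the lowest DKO column in 40 of 41 rows, and Pold1 and Mcm5 are low in all 3 DKO columns.

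Between the groups, 5 of the 41 genes fell in DKO, 0 rose and 36 did not pass (limma, adjusted p under 0.05 over all 19938 genes). The 5 were Mcm5, Pold1, Cdc45, Pola2 and Dut, with falls of 1.32-fold to 1.58-fold. Of all genes tested, 7.69% fell and 9.71% rose, beside 12.2% and 0 here, so the share that fell was of the same order as in the table as a whole. All 41 were among the brighter 50% of genes, of which 10.5% fell and 17.5% rose. At an unadjusted p under 0.05, 11 genes were lower and 1, Rfc3, was higher, where 16% and 15% of all genes were. All DKO values lay below all WT values in 12 of the 41 genes (29.3%, against 19.6% of all genes) and above them in 1 (against 16.2%), and the difference was negative in 33 (80.5%, against 57.9%), or in 37 after quantile or cyclic loess normalisation. The median difference was -0.18, against -0.04 over all genes. It was -0.29 against -0.05 after quantile normalisation and -0.25 against -0.01 after cyclic loess. In whole-population RNA, fewer cells in S phase and less RNA per cell cannot be told apart.

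Those figures depended on DKO replicate 2. Without it, 1 gene fell (Pold1) and 1 rose (Rfc3), beside 4.39% and 6.79% of all genes, the median difference was -0.09 beside -0.04 over all genes, and 25 differences were negative and 16 positive. The remaining DKO samples then lay below all WT samples in 12 of the 41 genes (24.9% of all genes) and above them in 7 (19.3% of all genes). Without replicate 2 of both groups, an alternative chosen after seeing the data, the same counts of 1 and 1 were found, beside 3.98% and 6.57% of all genes. The median was then -0.02, no longer below the -0.05 of all genes. Taken sample by sample, 17 of the 41 genes in DKO replicate 1 and 14 in DKO replicate 3 lay below all 3 WT values, shares of 41.5% and 34.1% that compare with 35.5% and 36.2% of all genes in the same arrays. In DKO replicate 2 the number was 35, or 85.4%, against 35.4% of all genes.

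**Figure D2:**
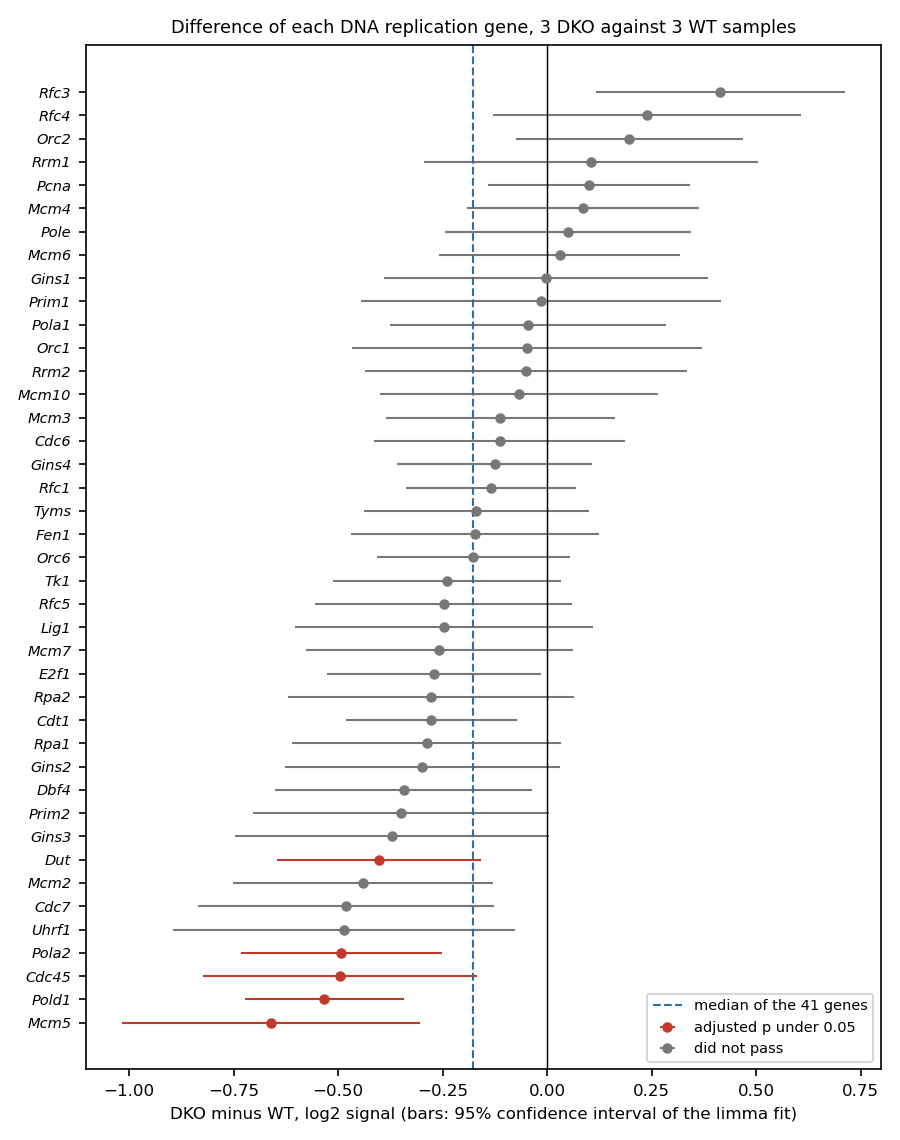
Difference between DKO and WT for each of the 41 genes on the log2 scale (points), with the 95% confidence interval of the limma fit over 3 samples per group (bars). The 5 genes that passed the threshold are red, lie between -0.40 and -0.66, and the dashed line is the median of -0.18.

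Promoter sequences of the genes that fell are shown because E2F sites are a known feature of many such genes and because RUNX genes were the targets of the deletion. RefSeq windows of GRCm38.p6, from 250 bases before to 50 after a gene's start, were found for 35 of the 41 genes, in 42 windows. Searched on both strands, the E2F words TTTCCCGC, TTTCGCGC, TTTGCCGC and TTTGGCGC occurred in 13 of these windows (31%), against 2.26% of all 32851 windows, 30.6% of 62 windows of other replication genes and 4% of 25 windows of G2 and mitosis genes. The CCAAT box (CCAAT) occurred in 57.1% of the windows, against 37.4% of all, 45.2% for other replication genes and 80% for G2 and mitosis genes, and the RUNX words TGTGGT and TGCGGT in 28.6%, against 22.4%, 19.4% and 16% in the same order. The words of different factors can overlap, as can those of E2F itself. The last 190 bases before the start are printed 5′ to 3′ on the gene's strand with each searched word in capitals, for the 3 genes that fell and hold one in their window, and for Mcm6, a gene that did not differ, chosen for contrast after the values were seen:
Mcm5, chr8:75109319-75109508, plus strand: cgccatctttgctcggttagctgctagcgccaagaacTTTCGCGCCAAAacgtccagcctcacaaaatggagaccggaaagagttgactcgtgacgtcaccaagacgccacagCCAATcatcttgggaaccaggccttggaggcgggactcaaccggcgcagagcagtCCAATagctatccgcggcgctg
Mcm6, chr1:128359706-128359895, minus strand: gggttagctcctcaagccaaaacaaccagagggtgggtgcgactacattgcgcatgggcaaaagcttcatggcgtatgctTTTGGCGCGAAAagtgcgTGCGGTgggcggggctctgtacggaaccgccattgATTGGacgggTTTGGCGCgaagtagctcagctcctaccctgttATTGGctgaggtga
Cdc45, chr16:18811973-18812162, minus strand: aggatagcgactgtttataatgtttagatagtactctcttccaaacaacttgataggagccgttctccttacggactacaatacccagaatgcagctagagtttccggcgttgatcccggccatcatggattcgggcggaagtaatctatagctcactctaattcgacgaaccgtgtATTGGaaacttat
Pold1, chr7:44548816-44549005, minus strand: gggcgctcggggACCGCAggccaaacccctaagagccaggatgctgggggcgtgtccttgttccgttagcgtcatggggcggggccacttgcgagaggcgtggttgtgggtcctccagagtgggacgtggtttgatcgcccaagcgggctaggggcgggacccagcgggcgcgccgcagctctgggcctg
In Mcm5 and in Mcm6 an E2F word on each strand overlap, with CCAAT boxes nearer the start, and Mcm6 also holds a RUNX word and a further E2F word. Cdc45 holds CCAAT boxes, of which that running across the start is not marked, and Pold1 holds a RUNX word. An E2F word of Pold1 and a CCAAT box of Mcm5 lie after the start and are not printed. The windows of Pola2 and Dut held none of the words. Over the 35 genes with a window, the 13 with an E2F word had a median difference of -0.25, with 2 that fell, and the 22 without one had a median of -0.21, with 3 that fell. A word is a match of letters, not evidence of binding.

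Among the subunits of the Mcm2-7 helicase, Mcm5 fell and the other members did not pass. Mcm5 signal was 8.52, 8.08 and 8.46 in DKO replicates 1 to 3 and 8.77, 9.32 and 8.95 in WT. The groups did not overlap, and DKO replicate 2 and WT replicate 2 formed the extremes. The fall was 1.58-fold (log2 difference -0.66, SE 0.159, limma adjusted p = 0.0193), and without DKO replicate 2 the difference was -0.52 and missed the threshold (limma adjusted p = 0.0673). Mcm2 was at 7.89, 7.52 and 8.01 in DKO and 8.13, 8.44 and 8.17 in WT. These values did not overlap either, but the difference of -0.44 did not pass (limma adjusted p = 0.057, 0.0182 to 0.289 over 19 alternatives) and was -0.30 without DKO replicate 2. Mcm7 and Mcm3 differed by -0.26 and -0.11 (-0.10 and 0.0067 without that sample), and Mcm4 and Mcm6 by 0.09 and 0.03, with overlapping groups in all of these. The hexamer contains each subunit once, and the differences of its transcripts, not tested against each other, ran from -0.66 to 0.09.

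None of the 5 origin recognition and licensing genes passed. Cdt1, the loader of the helicase, had the largest difference: 6.31, 6.09 and 6.25 in DKO against 6.45, 6.52 and 6.51 in WT, without overlap (-0.28, limma adjusted p = 0.0657). WT values of Cdt1 were close together, with an SD of 0.04. Cdc6, which recruits Cdt1 to the origin, differed by -0.11. Of the origin recognition subunits, Orc6 differed by -0.18, Orc1 by -0.05 and Orc2 by 0.20. Orc1 had the widest spread of all 41 genes in WT (SD 0.41), from 6.43 in replicate 1 to 7.25 in replicate 2.

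The 8 origin firing genes all had negative differences, and 1 of them, Cdc45, fell. Cdc45, which binds the helicase and GINS to form the active fork helicase, was at 7.80, 7.38 and 7.92 in DKO and 8.02, 8.36 and 8.20 in WT. Every DKO value was below every WT value, with DKO replicate 2 the lowest. The fall was 1.41-fold (-0.50, SE 0.146, limma adjusted p = 0.0446) and was lost in 8 of 19 alternatives, among them the removal of DKO replicate 1 or 2 or of WT replicate 2 or 3, with a difference of -0.34 without DKO replicate 2 (limma adjusted p = 0.124) and -0.25 without replicate 2 of both groups (limma adjusted p = 0.222). Cdc7, the kinase that triggers firing, was at 6.65, 6.11 and 6.78 in DKO and 6.92, 7.09 and 6.97 in WT. Its groups did not overlap, yet it did not pass (-0.48, limma adjusted p = 0.0653), and the difference was -0.28 without DKO replicate 2. Its activator Dbf4 differed by -0.34 and Mcm10, a fork scaffold, by -0.07, which was 0.09 without DKO replicate 2. The GINS subunits Gins3, Gins2, Gins4 and Gins1 differed by -0.37, -0.30, -0.13 and -0.0034, and for Gins1 the value without DKO replicate 2 was 0.23. 

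Of the 6 polymerase and primase genes, Pold1 and Pola2 fell. Pold1, the catalytic subunit of the lagging-strand polymerase delta, was at 7.17, 7.16 and 7.04 in DKO and 7.65, 7.69 and 7.63 in WT. These were the tightest groups among the genes that fell (SD 0.07 and 0.03), DKO replicate 2 did not stand out, and no value came near the other group. The fall was 1.45-fold (-0.53, SE 0.0844, limma adjusted p = 0.00276). It was the only one of the 5 that passed in all 19 alternatives (-0.49 to -0.59), including the fit without DKO replicate 2 (-0.55, limma adjusted p = 0.0116). Pola2, the regulatory subunit of polymerase alpha, was at 6.84, 6.65 and 6.75 in DKO and 7.39, 7.28 and 7.05 in WT. All DKO values were lower (1.41-fold, -0.49, SE 0.107, limma adjusted p = 0.0124). Without DKO replicate 2 the size was nearly kept (-0.45) and the adjusted p was 0.053 (limma). Its partners in the primosome did not pass: Pola1, the catalytic subunit, differed by -0.05, the primase Prim1 by -0.01 and Prim2, the larger primase subunit, by -0.35. Prim2 was at 6.75, 6.30 and 6.92 in DKO and 6.81, 7.04 and 7.17 in WT, with DKO replicate 3 inside the WT range. Pole, the catalytic subunit of the leading-strand polymerase epsilon, differed by 0.05.

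The clamp, clamp loader and single-strand binding genes held the largest positive differences, and none of the 7 passed. Rfc3, a clamp loader subunit, was at 8.62, 8.33 and 8.63 in DKO and 8.17, 8.30 and 7.86 in WT. It was the single gene of the 41 whose DKO values all lay above WT, narrowly for DKO replicate 2 (0.41, limma adjusted p = 0.0606). It passed in 6 of 19 alternatives, among them without DKO replicate 2 (0.51, limma adjusted p = 0.0498), and was at 0.32 (limma adjusted p = 0.146) when a trend of the difference over gene span and signal was removed. The other loader subunits differed by 0.24 (Rfc4), -0.13 (Rfc1) and -0.25 (Rfc5). Pcna, the sliding clamp, differed by 0.10 with overlapping groups. Both probe sets of Pcna held the same value in every array. Rpa1 and Rpa2, which coat single-stranded DNA, differed by -0.29 and -0.28 with overlapping groups.

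Neither gene of Okazaki fragment joining passed. Lig1, the ligase, was at 8.42, 7.90 and 8.46 in DKO and 8.32, 8.72 and 8.49 in WT. Only DKO replicate 2 lay outside the WT range (-0.25, limma adjusted p = 0.334, and -0.07 without that sample). Fen1, the flap nuclease, differed by -0.17.

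Of the 5 nucleotide supply genes, Dut fell. Dut encodes the enzyme that removes dUTP and so keeps uracil out of DNA. Its signal was 8.11, 7.84 and 7.94 in DKO and 8.22, 8.52 and 8.36 in WT. The groups did not overlap, although DKO replicate 1 and WT replicate 1 were close (1.32-fold lower, -0.40, SE 0.108, limma adjusted p = 0.0312). The call was lost in 7 of 19 alternatives, including the fits without DKO replicate 2 (-0.34, limma adjusted p = 0.112), DKO replicate 3, WT replicate 2 and WT replicate 3. Tk1, the salvage thymidine kinase, was at 8.58, 8.17 and 8.47 in DKO and 8.57, 8.58 and 8.80 in WT, overlapping in DKO replicate 1 (-0.24), and its second probe set differed by -0.16. Tyms, the thymidylate synthase, differed by -0.17. Rrm1 and Rrm2, the ribonucleotide reductase subunits, differed by 0.11 and -0.05, and with SDs of 0.39 and 0.38 in DKO they were among the most variable genes. Rrm1 ranged from 8.56 in DKO replicate 2 to 9.30 in DKO replicate 1.

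The S phase regulators E2f1 and Uhrf1 did not pass. Uhrf1, which guides maintenance DNA methylation behind the fork, was at 7.999, 7.67 and 8.12 in DKO and 8.001, 8.72 and 8.54 in WT. WT replicate 1 lay among the DKO values (-0.49, limma adjusted p = 0.102, with 0.0117 without WT replicate 1), and the difference was -0.36 without DKO replicate 2. E2f1, an activating E2F factor, was at 6.55, 6.31 and 6.72 in DKO and 6.88, 6.76 and 6.76 in WT, without overlap (-0.27, limma adjusted p = 0.141).

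**Figure D3:**
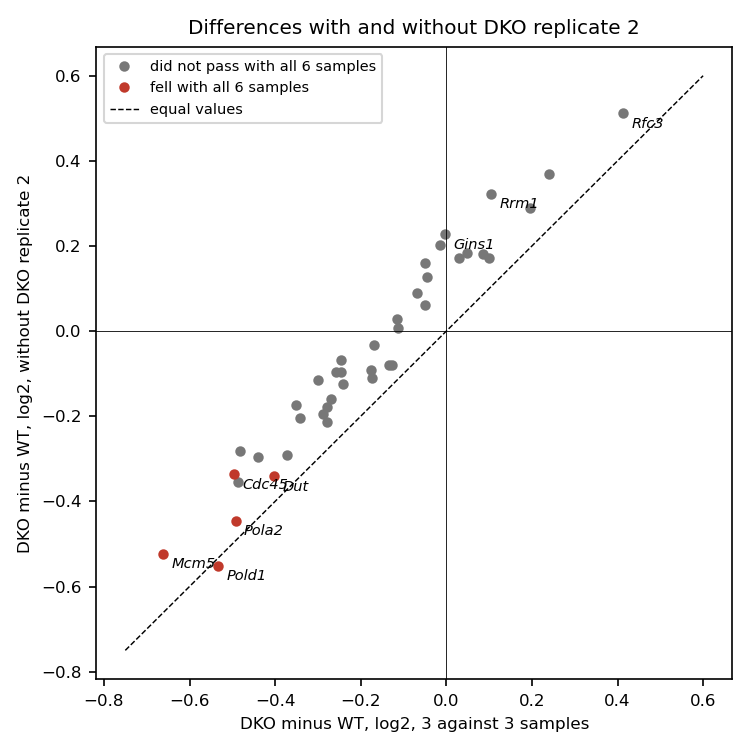
Difference between DKO and WT of each of the 41 genes on the log2 scale with all 3 DKO samples (horizontal) and without DKO replicate 2 (vertical). All genes but Pold1 lie above the dashed line of equal values, and 16 lie above 0 on the vertical axis, against 8 above 0 on the horizontal axis.

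The spread between replicates was itself shared among these genes. The median SD over the 41 genes was 0.23 in DKO and 0.16 in WT, against 0.10 and 0.12 over all genes. The mean signal of the 41 genes was 8.04, 7.68 and 8.07 in DKO replicates 1 to 3 and 8.03, 8.24 and 8.08 in WT. DKO replicates 1 and 3 were within the range of WT by this measure and DKO replicate 2 was below it. The 29 G2 and mitosis genes, which act later in the same cycle, had the same samples at both ends, DKO replicate 2 the lowest and WT replicate 2 the highest, with the others in a different order: 8.31, 7.88 and 8.30 in DKO and 8.08, 8.34 and 8.04 in WT, with DKO replicate 2 the lowest DKO sample in 29 of 29 genes and WT replicate 2 the highest WT sample in 26. The 16 G1 genes did not follow this pattern, at 7.80, 7.80 and 7.83 in DKO and 7.66 to 7.71 in WT. Of 65 replication genes outside the 41, DKO replicate 2 was the lowest DKO sample in 52 (80%) and WT replicate 2 the highest WT sample in 40. The median gap of DKO replicate 2 was -0.21 in these genes and -0.44 in the G2 and mitosis genes.

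**Figure D4:**
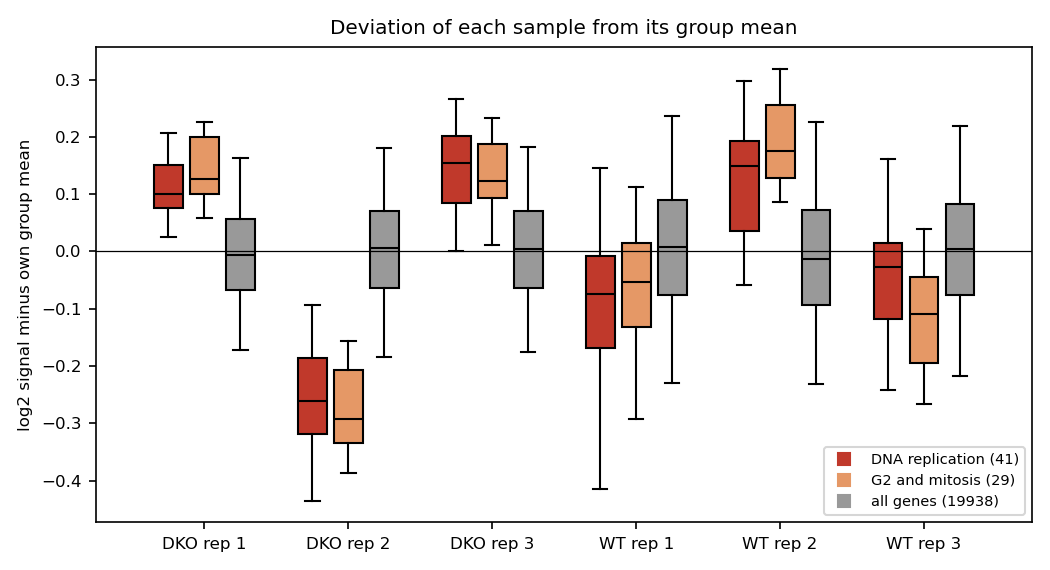
Deviation of log2 signal from the mean of a sample's own group, in each of the 6 samples, for the 41 DNA replication genes, 29 G2 and mitosis genes and all 19938 genes (boxes span the quartiles, lines the median, whiskers the central 90% of genes). Medians of the replication genes were -0.26 in DKO replicate 2 and 0.15 in WT replicate 2, while those of all genes were -0.01 to 0.01.

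Markers of cell types moved with DKO replicate 2 in part. The calls of each list stand beside 9.71% of all genes that rose and 7.69% that fell. The granulocyte-monocyte progenitor list (12 genes, 7 of which fell and 1 rose in DKO) had a mean signal of 7.17, 6.83 and 7.18 in DKO replicates 1 to 3, and 7.77 to 7.83 in WT. That of the KSL gate and stem cell list (12 genes, 6 rose and 3 fell) was 8.63, 8.83 and 8.72, and 8.29 to 8.47 in WT. The platelet and megakaryocyte list (10 genes, 6 rose and 0 fell) was at 7.75, 7.92 and 7.29, and 6.83 to 6.94 in WT, and the erythroid list (10 genes, 0 rose and 2 fell) at 6.63, 6.30 and 6.34, and 6.51 to 6.78 in WT. By these means, DKO replicate 2 was the lowest DKO sample for progenitor markers and the highest for gate, stem and platelet markers. In the erythroid list it was only slightly below DKO replicate 3, and DKO replicate 1 stood higher than both. The mast cell and basophil list (11 genes, 4 rose and 3 fell) was at 6.42, 6.52 and 6.41 in DKO and 5.83 to 6.00 in WT. The B cell list (10 genes, 0 rose and 3 fell) was at 5.27, 5.45 and 5.38, and 5.79 to 5.96 in WT. DKO replicate 2 was also the highest DKO sample in both lists. So it was for mature neutrophils and monocytes (4.97, 5.03 and 4.95), T and NK cells (4.801, 4.878 and 4.876) and endothelial and stromal cells (5.80, 5.81 and 5.77). In the macrophage and dendritic cell list, DKO replicate 3 was the highest (5.50, 5.53 and 5.56). List means can hide opposite members. In the KSL gate and stem cell list, Kit, Slamf1, Cd48, Ptprc, Tek and Meis1 rose and Flt3, Mecom and Thy1 fell. There DKO replicate 2 was the highest DKO sample for Kit (10.35, 10.72 and 10.38) and the lowest for Slamf1 (7.47, 7.30 and 7.37). The median difference was 0.13 in the mast cell and basophil list, with Cpa3 at 3.43. It was 0.02 in the erythroid list, with Car1 at -2.02. The part of these markers in the replication genes was not tested.

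Against the neighbouring phases of the cycle, the groups differed in other ways. The counts below stand beside 9.71% of all genes that rose and 7.69% that fell. Of the 29 G2 and mitosis genes, 1 rose and 0 fell (limma, with 2 lower and 1 higher at an unadjusted p under 0.05), with a median difference of 0.0014. The riser was Cdk1, the mitotic kinase (0.49, limma adjusted p = 0.0445), whose call was lost in 9 of 19 alternatives and kept without DKO replicate 2 (0.65, limma adjusted p = 0.00945). Without that sample the median of the list was 0.13 and that of the replication genes -0.09. When the span and signal trend was taken out, these medians were -0.11 and -0.29. In each of these settings the replication genes had the lower median, but the difference between the lists was not tested. Of the 16 G1 genes, 5 rose and 1 fell (37.5% called, against 17.4% of all genes). The risers included Rb1 (0.50) and Rbl2 (0.47), pocket proteins that hold E2F factors inactive, and the cyclin kinase inhibitors Cdkn2c (0.66) and Cdkn1b (0.62), with limma adjusted p from 0.00435 to 0.00977. The fifth was the G1 kinase Cdk6 (0.44, limma adjusted p = 0.0116, and adjusted p = 0.06 after that removal), and the G1 cyclin gene Ccnd1 fell by 0.67 on the log2 scale (limma adjusted p = 0.00447). All of these G1 calls held without DKO replicate 2. The other inhibitors measured, Cdkn1c, Cdkn2a, Cdkn2b and Cdkn2d, did not pass and differed by -0.22, -0.10, 0.01 and 0.22. The pocket protein gene Rbl1 differed by 0.39 without passing.

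Other replication genes, outside the 41, moved in both directions. Of 65 measured, 11 rose, 8 fell and 46 did not pass, and the median difference was -0.01. The share called in either direction was 29.2%, against 17.4% of all genes, of which 9.71% rose and 7.69% fell. Among the brighter 50% of genes, which held 63 of the 65, 17.5% rose and 10.5% fell. Movement in both directions was thus not particular to these genes. With quantile normalisation 7 rose and 12 fell. Among the 6 with the smallest p, Pole3, a histone-fold subunit of polymerase epsilon, fell by 0.89 on the log2 scale (limma adjusted p = 0.000326), E2f4, the main repressive E2F of resting cells, fell by 0.81 (limma adjusted p = 0.000573) and Chaf1a, the large subunit of the histone chaperone behind the fork, fell by 1.20 (limma adjusted p = 0.00114). Orc4 rose by 0.82 (limma adjusted p = 0.000579), Samhd1, which breaks down dNTPs, by 0.87 (limma adjusted p = 0.00085) and the helicase relative Mcm9 by 0.47 (limma adjusted p = 0.00465). These 6 calls also held without DKO replicate 2, and all but that of Chaf1a, lost with a plain t statistic (adjusted p = 0.0618), held in 19 of 19 alternatives.

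The complexes of the 41 genes were completed with their remaining subunits, chosen after the values were seen. Differences within a complex varied in size and direction, and subunits were not tested against each other. In the origin recognition complex, Orc3, Orc4 and Orc5 rose and Orc1, Orc2 and Orc6 did not pass. Orc4 was at 8.66, 8.63 and 8.77 in DKO and 7.75, 7.87 and 7.99 in WT, Orc3 differed by 0.62 (limma adjusted p = 0.00541) and Orc5 by 0.60 (limma adjusted p = 0.0132, lost without DKO replicate 1 and with a plain t statistic). DKO replicate 2 did not set these values apart, since without it they were 0.84, 0.65 and 0.60. With the span and signal trend removed, the differences of Orc4, Orc3 and Orc5 were smaller, at 0.64, 0.41 and 0.51. They still passed (limma adjusted p = 0.00236, 0.0359 and 0.0285). In polymerase delta, the accessory subunit Pold2 fell beside Pold1, at 7.71, 7.36 and 7.73 in DKO and 8.01, 8.26 and 8.19 in WT (-0.56, limma adjusted p = 0.0118, and -0.44 without DKO replicate 2, limma adjusted p = 0.0386, but not called without replicate 2 of both groups). Pold3 differed by -0.44 and Pold4 by 0.31, calls at an adjusted p of 0.0466 and 0.044 (limma) that were lost in 11 and 12 of 19 alternatives, in both cases including the fit without DKO replicate 2 (-0.31 and 0.33, with limma adjusted p of 0.148 and 0.0888). In polymerase epsilon, Pole and Pole4 did not pass (0.05 and 0.14), Pole2 rose by 0.47 (limma adjusted p = 0.0346, lost in 8 of 19 alternatives, with 0.0683 without DKO replicate 2) and Pole3 was at 8.03, 7.88 and 8.08 in DKO and 8.95, 8.86 and 8.83 in WT. The remaining subunits of the clamp loader and of the single-strand binding complex, Rfc2 and Rpa3, differed by 0.16 and 0.06 without passing.

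**Figure D5:**
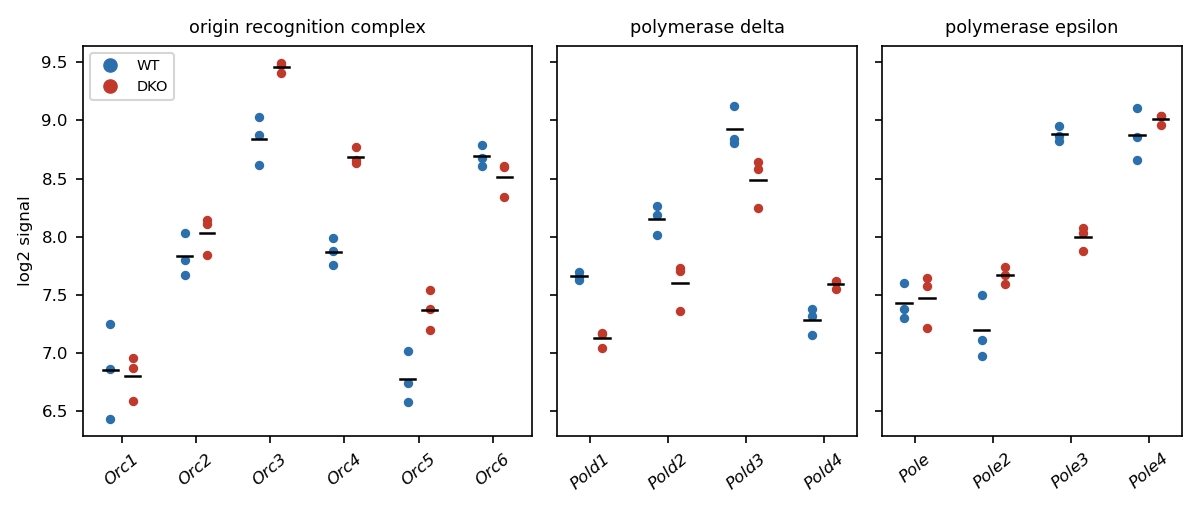
Log2 signal in each of the 3 WT (blue) and 3 DKO (red) samples for every subunit of the origin recognition complex, polymerase delta and polymerase epsilon, with the group mean as a black line. DKO and WT values are apart, upward, for Orc3 to Orc5, Pold4 and Pole2, and apart, downward, for Pold1 to Pold3 and Pole3. In Orc6 they nearly touch, with 8.607 as the highest DKO value and 8.610 as the lowest WT value. Levels of different genes are not on a common scale.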

How the data were processed

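The authors deposited log2 signals, 1 per probe set and array, in a table of 35556 probe sets. Per the labels, the titles call the values RMA at the gene level with default settings. RMA corrects background, gives the probe values of all arrays the same distribution and combines the probes of a set. The combined values need not share a distribution: upper quartiles ran from 7.21 in WT replicate 3 to 7.30 in DKO replicate 3. A preliminary MAS 5.0 step is what the design text names instead. The submitters' processing notes list Affymetrix Expression Console 1.0. A genome build was not given in the sources used here. NuGEN reagents amplified the RNA, per the labels' protocols.

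Of the probe sets, 21789 had 1 gene symbol in the platform annotation, 1621 several and 12146 none. The former gave 19938 genes, of which 19856 were matched by Entrez number to RefSeq (GRCm38.p6). The fit of DKO minus WT, 3 samples each as grouped by the labels, used limma 3.58.1 under R 4.3.3 (lmFit, eBayes, defaults, two-sided), with Benjamini-Hochberg adjustment over all genes and a threshold of 0.05. The script was tested on simulated data. No filter on dim genes was applied. An exact permutation test of 3 against 3 cannot go below 0.1 and was not used. Lists are described by counts and medians. The 41 genes and the other lists were chosen with earlier results of these data known. Every one of the 41 is named. Values per sample are given for genes past the threshold and for the largest difference that missed it in each role group. In other lists at most 6 genes with the smallest p are named. Exceptions are partners of the 41 in their complexes and genes chosen after their values were seen. The latter are Polh, Rev3l, Rif1, Clspn, the named G1 genes that did not pass and the named cell type markers other than Kit. The sample values of E2f1 and the ranges of Orc1 and Rrm1 were also chosen after their values were seen. Replicate numbers were not shown to pair the samples (correlations of same-numbered deviations from group means were -0.00874, -0.0954 and -0.0419). Alternatives covered normalisation, dim genes, probe sets, model, threshold, the replicate block and leaving out each sample.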

Additional observations from a re-analysis of the deposited data

How the results depend on the processing

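Of 861 values of the 41 genes under alternatives, 813 kept their direction and side of the threshold or never passed, 25 lost the call, 23 gained it and 0 called values changed sign. The count of these genes that fell, 5, was 8 with quantile normalisation, without the dimmest 50% of genes or at a threshold of 0.1, and 1 with a plain t statistic, at 0.01 or without replicate 2 of both groups. Of all genes, 8.98%, 12.7% and 11.5% fell in the settings with 8 falls, in that order. In those with 1 fall, 2.07%, 2.95% and 3.98% of all genes fell, against 7.69% in the main fit. The count ran from 1 to 7 when single samples were left out: 1 without DKO replicate 2 (4.39% of all genes), and 3 without WT replicate 2 or 3 (6.83% and 5.24%). The count that rose, 0, was 1 (Rfc3) without the dimmest 25% or 50% of genes, with array weights, at a threshold of 0.1 and without replicate 2 of both groups. Of all genes, 13.6%, 20%, 10.2%, 12.6% and 6.57% rose in these settings, in that order. The count that rose was 0 to 1 without single samples. The median difference was -0.27 to -0.09 without single samples. Replicate numbers are not shown to pair the samples; the replicate block gave 3 falls (Mcm5, Pola2 and Pold1) and 0 risers among the G2 and mitosis genes.

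Over all genes, 1936 rose and 1533 fell. With quantile normalisation these counts were 1542 and 1790, so that more genes fell than rose. They were 655 and 412 with the plain t statistic, 1058 and 588 at 0.01, and 1250 to 1868 and 843 to 1388 without single samples. Without replicate 2 of both groups, 793 genes fell. Of the other replication genes, the 11 risers became 7 with quantile normalisation or with the span and signal trend removed, 4 with the plain t statistic, 6 at 0.01, 13 without replicate 2 of both groups and 6 to 12 without single samples. The 8 that fell became 12 with quantile normalisation, cyclic loess, the trend removed or a threshold of 0.1, 2 with the plain t statistic, 3 at 0.01, 3 without replicate 2 of both groups and 6 to 8 without single samples. The 1 G2 and mitosis riser became 0 with quantile normalisation, cyclic loess, the trend removed, the plain t statistic or 0.01, 2 with the most variable probe set, 5 without replicate 2 of both groups and 0 to 2 without single samples, and 1 fell without the dimmest 50%, at 0.1 or within a range of 0 to 1 without single samples. With the plain t statistic 1 G1 gene rose and 0 fell. With 3 samples a group, SEs of 0.0844 to 0.192 among the 41 genes limit what can be called.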

Other observations

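Of 8 further polymerase genes measured, 4 rose, 3 fell and 1 did not pass. Of 10 further firing and fork genes, 1 rose, 1 fell and 8 did not pass. In the whole table, 9.71% of genes rose and 7.69% fell. The 4 genes below are those of the called ones not described above. Polh, the polymerase that bypasses ultraviolet lesions, was at 7.41, 7.21 and 7.55 in DKO replicates 1 to 3 and 6.62, 6.90 and 6.79 in WT (0.62, limma adjusted p = 0.00558, and 0.71 without DKO replicate 2). Rev3l, the catalytic subunit of polymerase zeta, was at 8.23, 8.32 and 8.28 in DKO and 7.87, 7.85 and 7.65 in WT (0.49, limma adjusted p = 0.00665, and 0.47 without DKO replicate 2). The calls of both were lost in 1 of 19 alternatives, the plain t statistic. Rif1, which restrains origin firing, differed by 0.62 (limma adjusted p = 0.0347, lost in 6 of 19 alternatives). Clspn, the checkpoint mediator at the fork, differed by -0.58 (limma adjusted p = 0.0487), with DKO replicate 2 the lowest sample at 6.78, and the call was lost in 10 of 19 alternatives, including the fit without that sample (-0.36, limma adjusted p = 0.0995).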
